A study of Mus musculus with 4 samples.

Results

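The 42 genes described here are a set of mouse cell cycle genes, among them Mki67, Top2a, the cyclins of mitosis and the MCM helicase. They were taken by symbol from the 27998 genes counted in single cells of the nasal mucosa. Each of the 42 symbols was found as 1 row, and each gene had at least 1987 unique molecular identifiers (UMIs, counts of captured mRNA molecules) over the cells analysed. Of the members, 26 act in or around mitosis, 15 act in or around S phase, and Stmn1, which encodes the tubulin destabiliser stathmin, stands apart. A cell was called cycling where its summed UMIs of Mki67 and Top2a reached 3, and 3049 of 72320 cells did so. The members are a list of symbols, and the rule that gives it uses no measured value, although earlier results of these data were known when it was drawn up. Mki67 and Top2a define the cycling call, so their excess in cycling cells is no result.

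The cells were CD45+ cells, that is, leukocytes, isolated from digested nasal mucosa of C57BL/6 mice aged 8 weeks. The 4 groups were Vehicle and Ribavirin, and the same with OVA, named Vehicle-OVA and Ribavirin-OVA. OVA stands for ovalbumin, given with alum into the peritoneum to sensitise the mice and then into the nose to challenge them, which makes a model of allergic rhinitis. Ribavirin is an antiviral nucleoside analogue, applied as a spray according to the title of the series. Its dose and timing and the number of mice behind each library are not given in the sources used here. Each group was 1 droplet library of 1 sample, so no group had a replicate, no test between groups was possible and no p-value is given. All intervals below are exact 95% intervals that cover counting error only.

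Before a cell divides it copies its DNA in S phase and then separates the copies in mitosis. The S-phase members encode the loaders and subunits of the replicative helicase (Cdc6, Cdt1, the MCM proteins, Gins2), the sliding clamp of the replication fork (Pcna), a factor that keeps DNA methylation through replication (Uhrf1) and the enzymes that make DNA precursors (Rrm1, Rrm2, Tyms, Tk1). The mitotic members encode cyclins and their kinase Cdk1, the chromosomal passenger complex (Birc5, Aurkb, Cdca8), kinetochore and checkpoint proteins, parts of the anaphase-promoting machinery (Cdc20, Ube2c) and motors and bundlers of the spindle. In mucosa under allergen challenge, lymphocytes are known to divide after antigen contact, plasmablasts divide before they become resting plasma cells, and mature neutrophils no longer divide.

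The promoters of the members were examined first, because transcription of the mitotic and of the S-phase genes is known to be switched by different short elements. The E2F factors bind elements of S-phase promoters, and a repressor complex of resting cells binds the cell cycle genes homology region, TTTGAA or TTTAAA, of mitotic promoters, often beside CCAAT boxes. RefSeq promoters (build GRCm38.p6, 250 bases before to 50 bases after the start) were at hand for 35 members. Those of Ccna2, Aurkb, Tpx2, Kif20a, Mcm4, Gins2 and Stmn1 were not used. Both strands were searched. TTTGAA was found in 17 of 22 mitotic members, in 1 of 13 S-phase members (Mcm2) and in 20.2% of the 27025 genes of the table. In each of those 17 mitotic promoters a CCAAT also occurred, a pair that 7.97% of all genes held. The E2F letters TTTCCCGC, TTTCGCGC, TTTGCCGC and TTTGGCGC, counted as 1 motif, were found in 7 of 13 S-phase members, in 1 of 22 mitotic members (Cdk1) and in 2.6% of all genes. TTTAAA, which some promoters held besides TTTGAA, did not separate the groups, with 7 of 22 and 4 of 13 members against 14.9% of all genes. These matches are letters in a window, not measured binding.

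The 150 bases before the start are shown for 3 mitotic and 2 S-phase members whose elements lie upstream of the annotated gene, so that the elements can be seen in place. Capitals in the first 3 mark TTTGAA and CCAAT on either strand, and capitals in the last 2 mark the E2F letters on either strand. Mki67 lies at chr7:135716380-135716529 (minus strand), Top2a at chr11:99024190-99024339 (minus), Kif11 at chr19:37376232-37376381 (plus), Mcm6 at chr1:128359706-128359855 (minus) and Mcm5 at chr8:75109359-75109508 (plus).
Mki67: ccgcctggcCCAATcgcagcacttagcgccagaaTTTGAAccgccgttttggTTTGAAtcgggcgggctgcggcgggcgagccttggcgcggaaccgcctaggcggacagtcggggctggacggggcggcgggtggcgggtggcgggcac
Top2a: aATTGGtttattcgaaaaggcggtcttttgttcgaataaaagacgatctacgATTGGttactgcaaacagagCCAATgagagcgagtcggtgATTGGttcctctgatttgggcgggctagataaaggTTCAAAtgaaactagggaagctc
Kif11: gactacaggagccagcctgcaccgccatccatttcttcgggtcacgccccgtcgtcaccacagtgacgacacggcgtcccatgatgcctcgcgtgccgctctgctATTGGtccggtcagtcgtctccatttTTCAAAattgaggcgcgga
Mcm6: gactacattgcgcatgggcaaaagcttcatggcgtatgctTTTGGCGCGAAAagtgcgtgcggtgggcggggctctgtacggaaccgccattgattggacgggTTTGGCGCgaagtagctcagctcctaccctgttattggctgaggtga
Mcm5: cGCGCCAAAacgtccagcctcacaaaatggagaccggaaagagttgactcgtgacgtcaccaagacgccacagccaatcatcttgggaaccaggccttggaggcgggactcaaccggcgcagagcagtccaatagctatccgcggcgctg
The Top2a and Kif11 elements end 17 and 13 bases before the start, whereas the nearer of the 2 in Mki67 ends 92 bases before it. Mcm6 holds 3 overlapping or separate E2F matches and Mcm5 holds 1.

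The libraries held between 8817 and 25727 cells after filtering, with median depths of 3432.5 to 5131.5 UMIs per cell. Cells were assigned to 19 classes by UMIs of marker genes and are called "-like" for that reason. The 11 classes with at least 50 cells in each library are described. Between 57 and 174 cell barcodes were shared by any pair of libraries, and leaving those cells out moved each ratio of cycling shares by less than its interval. Neutrophil-like cells made up 62.0% of the Vehicle-OVA library and 26.5% to 33.0% of the other libraries, so that shares over all cells moved with the makeup of the library. In T cell-like cells the 4 T cell markers summed to 2726, 1906, 2627 and 1880.0 CPM (UMIs of a gene as a share of all UMIs of the class, scaled to 1000000) in the order Vehicle, Vehicle-OVA, Ribavirin, Ribavirin-OVA, and the macrophage markers to 92.9, 75.8, 92.1 and 84.0 CPM. In the same cells Ncr1, a defining receptor of NK cells, was detected in at most 0.606%. A T cell-like call required a score 1.5 times that of the next class. Low levels of markers of other classes therefore follow in part from the rule and do not measure purity. Nkg7, detected in at least 93.2% of NK-like cells of each library, was detected in 34.2% (Vehicle) to 47.1% (Ribavirin-OVA) of T cell-like cells.

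Cycling cells were unevenly spread over the classes. Of the 3049 cycling cells, 33.3% were T cell-like, 23.4% plasma cell-like, 13.2% macrophage-like and 4.23% neutrophil-like, and 10.9% carried markers of more than 1 class. As a share of the class over the 4 libraries, cycling cells made up 23.8% (22.2 to 25.3) of plasma cell-like and 18.2% (14.9 to 21.9) of immature neutrophil-like cells. The order of these 2 classes differed between libraries, since in the Vehicle and Ribavirin libraries immature neutrophil-like cells had the higher share, 18.4% and 26.5% against 16.0% and 16.5% (with overlapping intervals in the Vehicle library), and in the libraries with OVA the lower one, 14.8% and 11.5% against 34.4% and 48.8%. Over the 4 libraries cycling cells made up 9.45% (7.73 to 11.4) of cDC-like and 7.68% (7.23 to 8.15) of T cell-like cells, whose intervals overlapped. Lower pooled shares were those of B cell-like cells at 5.11% (3.83 to 6.66), epithelial-like cells at 4.75% (3.62 to 6.09) and macrophage-like cells at 3.76% (3.41 to 4.13), and the order of these 3 also differed between libraries. Mature neutrophils and neurons no longer divide and gave the background of the call. It was 0.476% (0.398 to 0.566) of 27073 neutrophil-like cells at a median depth of 2768 UMIs, and 0 of 468 olfactory neuron-like cells at 7686.5 UMIs, which allows a share of up to 0.641% by a limit of 3 counts and of up to 0.785% by the exact interval. This background itself differed between libraries, with a ratio with OVA in neutrophil-like cells of 1.88 (1.18 to 3.1) in the vehicle pair and 0.638 (0.215 to 1.58) in the ribavirin pair.

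**Figure D1:**
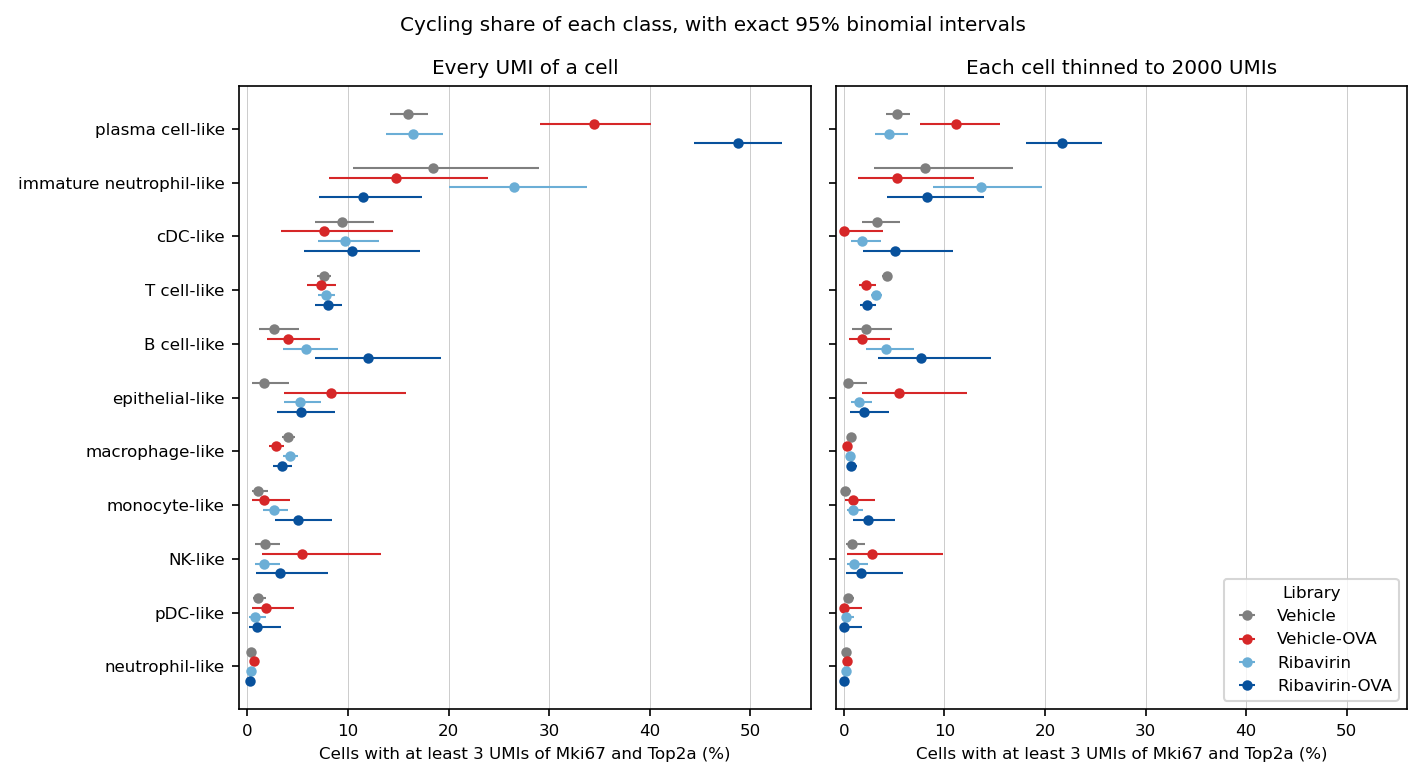
Share of cells with at least 3 UMIs of Mki67 and Top2a (%, x axis) in each of 11 classes and 4 libraries, from every UMI of a cell (left) and after thinning each cell to 2000 UMIs (right), with exact 95% binomial intervals as bars. The plasma cell-like shares of the libraries with OVA, 34.4% and 48.8%, sit above the 16.0% and 16.5% without it, and thinning lowers the shares of all 11 classes.

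Depth weighed on the call. Cycling cells held a median of 14894 UMIs and other cells 4257. Therefore each cell was also thinned to 2000 UMIs, leaving out 9143 shallower cells, which lowered the share over all cells from 4.22% to 1.71% and that of macrophage-like cells from 3.76% to 0.581%. At the threshold itself, the 689 cells with exactly 3 UMIs had a median of 1 of the 24 other mitotic members detected, the same median as the 1910 cells with 2 UMIs, and 19.0% against 10.3% of them had 3 or more.

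How far the call was backed by the other mitotic members differed between classes. In cycling cells the median number detected of the 24 was 19 in immature neutrophil-like, 18 in B cell-like, 14 in T cell-like, 10 in plasma cell-like and 1 in macrophage-like cells. Of the 404 cycling macrophage-like cells, 66.1% had under 3 of the 24 and 54.7% had no Top2a UMI. A share that asks for both criteria was 16.4% (15.1 to 17.8) in plasma cell-like, 5.76% (5.37 to 6.18) in T cell-like, 1.27% (1.07 to 1.5) in macrophage-like and 0.0813% (0.0509 to 0.123) in neutrophil-like cells. In the Vehicle-OVA library 69 of the 71 cycling neutrophil-like cells had under 3 of the 24 and 63 had no Top2a UMI, at a median depth of 3672 UMIs.

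**Figure D2:**
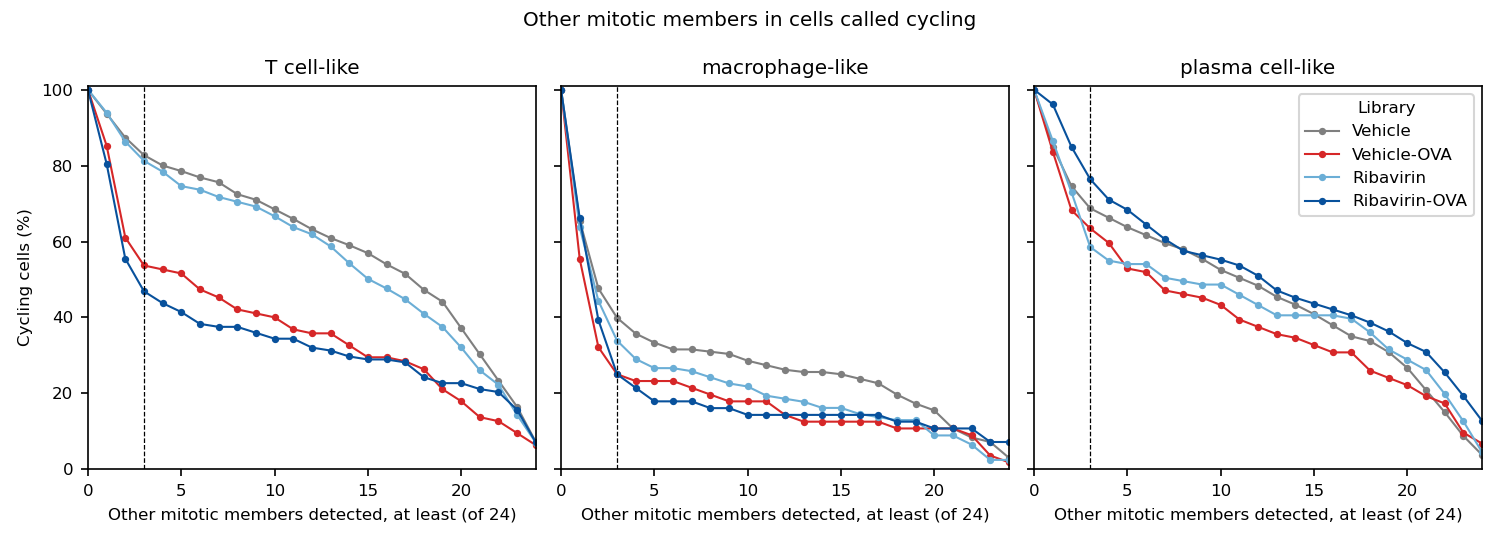
Cycling cells (%, y axis) in which at least a given number of the 24 other mitotic members was detected (x axis), by library, in T cell-like, macrophage-like and plasma cell-like cells, with a dashed line at 3. From 1 to 22 members the T cell-like curves of the libraries with OVA run below those without OVA, and 46.3% and 53.1% of their cycling cells had under 3, against 17.2% and 18.7%.

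The members were then summed by class. The 26 mitotic members summed to 1455, 916, 1215 and 973 CPM in T cell-like cells of the Vehicle, Vehicle-OVA, Ribavirin and Ribavirin-OVA libraries and to 126, 80.8, 116 and 132 CPM in neutrophil-like cells. The sums in plasma cell-like cells were 1068, 1719, 949.8 and 2881 CPM. The libraries with OVA were the higher ones in plasma cell-like cells and the lower ones in T cell-like cells. Among the 11 classes, the level of a member was highest most often in T cell-like cells in the Vehicle library (19 members), closely followed by immature neutrophil-like cells (18). It was so in plasma cell-like cells in the Vehicle-OVA library (19), in immature neutrophil-like cells in the Ribavirin library (24) and in B cell-like cells in the Ribavirin-OVA library (22). In the Ribavirin-OVA library the B cell-like and immature neutrophil-like classes held 117 and 165 cells. The immature neutrophil-like class held 76 and 170 cells in the Vehicle and Ribavirin libraries. How often each class was highest over all genes was not counted.

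**Figure D3:**
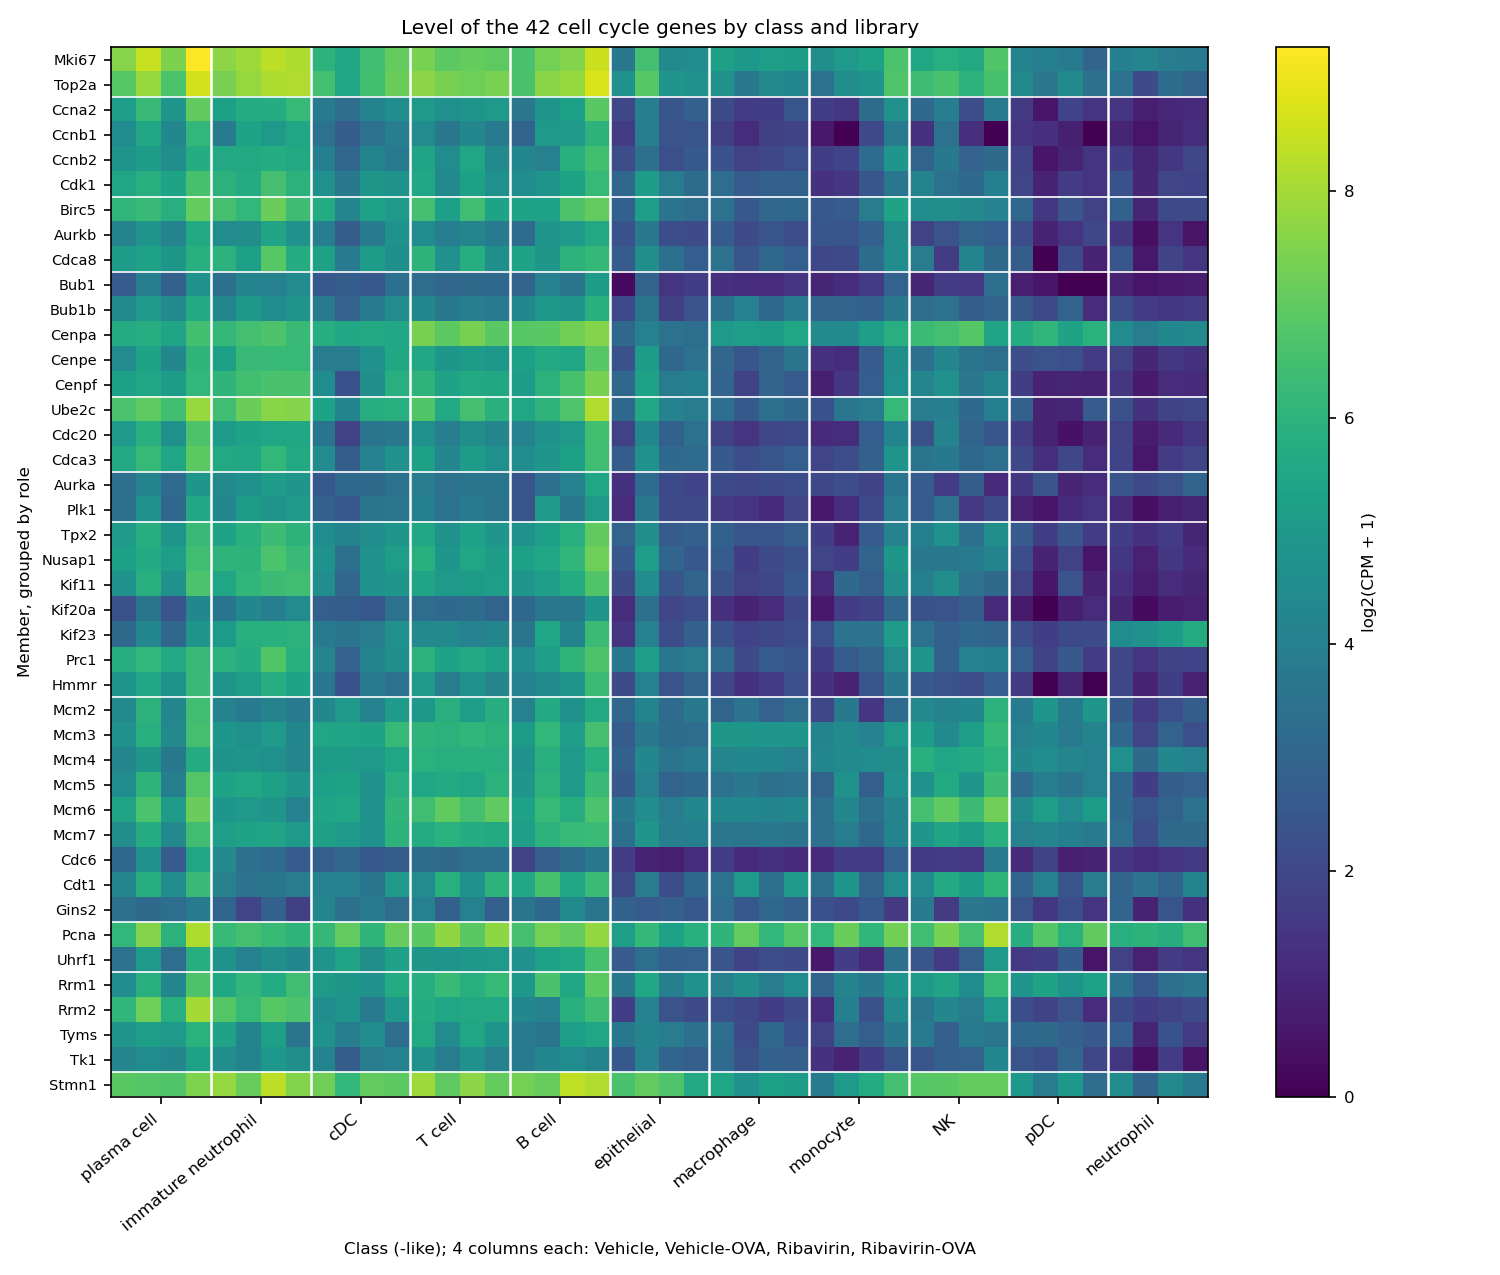
Level of each of the 42 members (rows, grouped by role) as log2(CPM + 1) in 11 classes, each with 4 columns for Vehicle, Vehicle-OVA, Ribavirin and Ribavirin-OVA. Levels are not scaled by gene length, so colours are to be read along a row. In plasma cell-like cells the row of Mki67 runs from 173 CPM in the Ribavirin library to 617 CPM in the Ribavirin-OVA library, the brightest cell of that row.

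Next, the members were compared between libraries with and without OVA, class by class. Fewer cells of a kind and less RNA per cell cannot be told apart in the sums over a class. In plasma cell-like cells, the secretors of antibody and their dividing precursors, cycling cells were 240 of 1499, 104 of 302, 111 of 674 and 259 of 531 in the Vehicle, Vehicle-OVA, Ribavirin and Ribavirin-OVA libraries. These are shares of 16.0% (14.2 to 18), 34.4% (29.1 to 40.1), 16.5% (13.7 to 19.5) and 48.8% (44.4 to 53.1). The ratio with OVA was 2.15 (1.69 to 2.72) in the vehicle pair and 2.96 (2.36 to 3.73) in the ribavirin pair, and after thinning the ratios were 2.11 (1.32 to 3.27) and 4.84 (3.20 to 7.53). The intervals of the libraries with OVA did not overlap those without it.

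Member levels are given in the order Vehicle, Vehicle-OVA, Ribavirin, Ribavirin-OVA from here on. In plasma cell-like cells Mki67, the proliferation antigen that coats mitotic chromosomes, stood at 193, 356, 173 and 617 CPM. Top2a, which untangles DNA strands, stood at 115, 229, 99.6 and 398 CPM. Both were highest in the Ribavirin-OVA library and lowest in the Ribavirin library. For Cdk1, the kinase that drives entry into mitosis, the levels were 42.6, 56.6, 40.8 and 94.4 CPM. For Birc5 (survivin, of the chromosomal passenger complex) they were 67.0, 74.7, 57.3 and 133 CPM. The Birc5 ratio with OVA was 1.12 (0.985 to 1.26) in the vehicle pair and 2.32 (2.10 to 2.56) in the ribavirin pair, so that only the second interval lay above 1. Cenpa, the histone H3 variant of centromeres, read 51.3, 53.3, 41.6 and 87.5 CPM. Ube2c, the ubiquitin-conjugating enzyme of the anaphase-promoting complex, read 98.2, 125, 88.4 and 230.2 CPM. Aurka, the kinase of spindle poles, read 9.53, 16.7, 8.40 and 27.9 CPM. Each of these genes was highest in the Ribavirin-OVA library, as was Prc1, which bundles the central spindle, at 54.4, 68.8, 47.4 and 77.1 CPM.

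Among the S-phase members of plasma cell-like cells, Mcm6, a subunit of the helicase, read 42, 98.9, 32.9 and 139.9 CPM, with ratios of 2.35 (2.09 to 2.65) and 4.25 (3.76 to 4.82) in the vehicle and the ribavirin pair. Pcna read 69.9, 187, 60.6 and 277 CPM, with ratios of 2.68 (2.45 to 2.93) and 4.57 (4.17 to 5.00). Rrm1, the large subunit of ribonucleotide reductase, read 22.3, 57.1, 18.5 and 100.9 CPM, with ratios of 2.56 (2.18 to 3.01) and 5.46 (4.65 to 6.44). All 3 were higher in both libraries with OVA than in either library without it. Summed, the S-phase members had ratios of 2.32 (2.23 to 2.41) and 4.26 (4.10 to 4.42) and the mitotic members 1.61 (1.57 to 1.65) and 3.03 (2.96 to 3.11). Stmn1 read 119.5, 109, 107 and 178 CPM.

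Across the list, all 42 members had at least 50 UMIs in plasma cell-like cells and entered the comparison on the log2(CPM + 1) scale, which understates differences of low genes. In the vehicle pair 18 members were at least 2-fold higher with OVA, 7 mitotic and 11 of S phase, against 12.3% of the 11076 genes compared, and 0 were at least 2-fold lower, against 2.96%. The median difference of the members was 0.88, against 0.36 for all genes, and relative to that median of all genes 6 members passed. In the ribavirin pair 37 members were at least 2-fold higher, against 17.1% of genes, and 0 lower, against 4.05%. Their median difference was 1.79 against 0.40, and relative to the latter 28 passed. The 5 that did not pass were Cdca8, Prc1, Gins2, Tyms and Stmn1, at 0.96, 0.69, 0.46, 0.88 and 0.73. The count for the vehicle pair was 34 once cells marked by a doublet procedure were removed. Over the same libraries the 6 plasma cell markers summed to 108620.0, 53728, 102000.0 and 45034 CPM and the 7 B cell markers to 925, 813, 871 and 825 CPM. The part of the lower plasma cell marker level in the higher member levels was not tested.

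**Figure D4:**
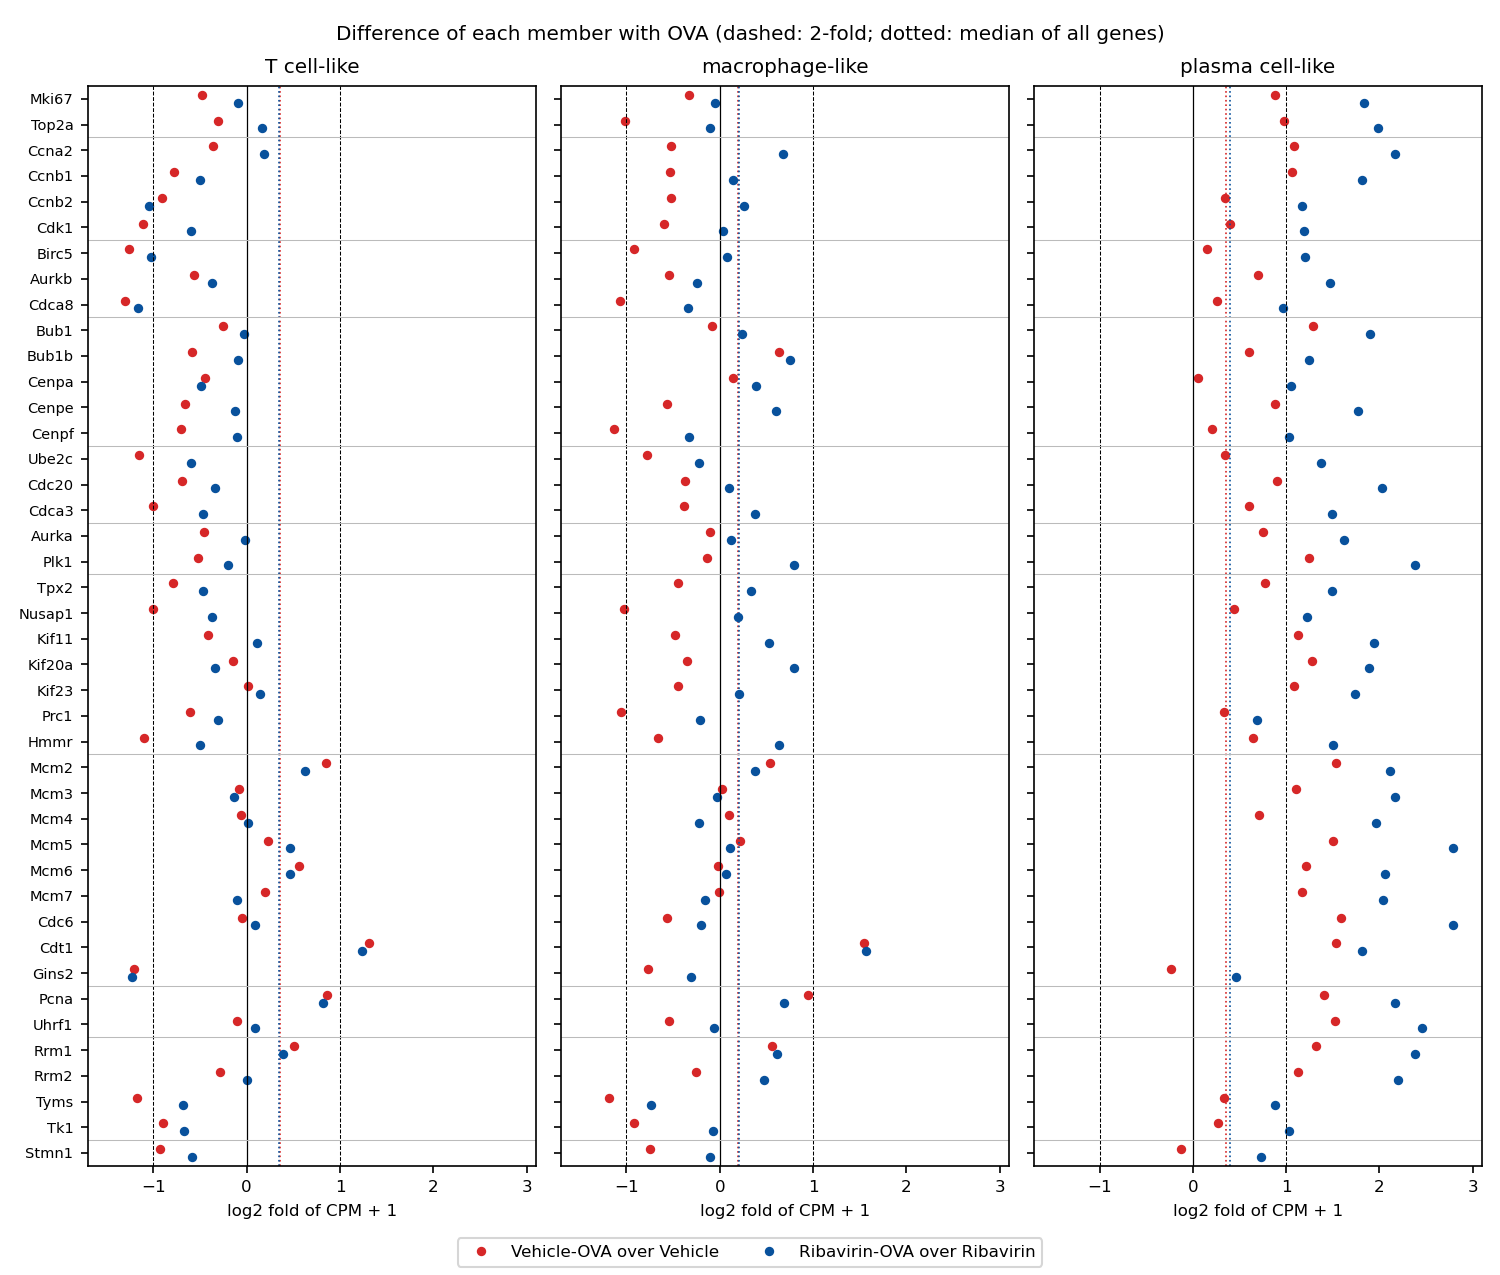
Difference of each member between libraries with and without OVA as log2 of the ratio of CPM + 1 (x axis), in T cell-like, macrophage-like and plasma cell-like cells, for the vehicle pair and the ribavirin pair. Dashed lines mark 2-fold and dotted lines the median of all genes compared. In plasma cell-like cells all 42 points of the ribavirin pair lie above 0, and in T cell-like cells most mitotic members lie below 0, with Cdt1 at 1.31 and 1.24.

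In T cell-like cells the cycling share was 7.60% (6.95 to 8.28), 7.30% (5.94 to 8.85), 7.81% (7.00 to 8.69) and 7.99% (6.71 to 9.43). The ratio with OVA was 0.961 (0.762 to 1.2) and 1.02 (0.826 to 1.26) in the vehicle and the ribavirin pair, so that no difference was detectable by the 3-UMI rule. After thinning, the shares were 4.27% (3.78 to 4.81), 2.20% (1.47 to 3.16), 3.24% (2.71 to 3.83) and 2.29% (1.61 to 3.16), with ratios of 0.515 (0.336 to 0.762) and 0.707 (0.475 to 1.03). The cycling cells of the libraries with OVA held fewer UMIs of Mki67 and Top2a, with medians of 6 and 4.5 against 18 and 16 in the Vehicle and Ribavirin libraries. Their median depths were 11523, 10215, 12835 and 10629.5 UMIs.

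Among the mitotic members of T cell-like cells, Mki67 read 168, 120.1, 133 and 124 CPM and Top2a 202, 163, 150.5 and 169 CPM. Cdk1 read 44.9, 20.3, 37.3 and 24.4 CPM, Birc5 88.8, 36.3, 84.2 and 41.0 CPM, and Ube2c 108, 48.1, 89.0 and 58.5 CPM. These last 3 were lower in both libraries with OVA than in either library without it. The Birc5 ratios were 0.409 (0.361 to 0.462) and 0.487 (0.438 to 0.540). Cenpa (166, 122, 164 and 117 CPM), Prc1 (61.8, 40.2, 47.8 and 38.5 CPM) and Stmn1 (239, 125, 204 and 135 CPM) were likewise lower in both libraries with OVA. Aurka read 14.1, 9.96, 11.3 and 11.1 CPM, and its ratio was 0.708 (0.549 to 0.903) in the vehicle pair and 0.989 (0.789 to 1.23) in the ribavirin pair.

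The S-phase members of T cell-like cells went both ways. Mcm6 read 86.1, 128, 91.6 and 127 CPM, Pcna 117, 214, 117 and 208 CPM, and Rrm1 53.7, 76.7, 55.1 and 72.2 CPM, each higher in both libraries with OVA. Cdt1, which loads the helicase, read 21.5, 54.7, 25.9 and 62.3 CPM, with ratios of 2.55 (2.25 to 2.88) and 2.41 (2.15 to 2.69). In contrast, Gins2, a subunit of the active helicase, read 16.0, 6.34, 15.9 and 6.24 CPM, and Tyms, thymidylate synthase, 49.0, 21.1, 43.7 and 26.8 CPM, both lower with OVA. Summed over the 15 S-phase members, the ratio with OVA was 1.24 (1.2 to 1.27) and 1.24 (1.21 to 1.27), whereas the mitotic sum gave 0.630 (0.614 to 0.646) and 0.801 (0.783 to 0.819). By median difference on the log2(CPM + 1) scale the S-phase members stood at -0.05 and 0.08 and the mitotic members at -0.63 and -0.34. Both lists were below the 0.36 and 0.35 of all genes, so by this median the S-phase members showed no excess over all genes.

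By count, 9 of 42 members were at least 2-fold lower with OVA in T cell-like cells of the vehicle pair (Cdk1, Birc5, Cdca8, Ube2c, Cdca3, Nusap1, Hmmr, Gins2 and Tyms), against 3.2% of the 12110 genes compared, and 1 was higher (Cdt1), against 11.7%. In the ribavirin pair 4 were lower (Ccnb2, Birc5, Cdca8 and Gins2), against 3.43%, and 1 was higher (Cdt1), against 8.92%. The members' median differences were -0.50 and -0.13, against 0.36 and 0.35 for all genes. Relative to those, 17 and 6 members were at least 2-fold lower and 0 and 0 higher. Across the 12084 genes with a known exonic length, the difference in T cell-like cells had a Spearman correlation with length of 0.43 and 0.46, and across the 42 members of 0.09 and 0.16, as a description over genes that share the libraries.

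In macrophage-like cells, the tissue phagocytes, cycling cells were 4.04% (3.46 to 4.69), 2.80% (2.12 to 3.62), 4.2% (3.51 to 4.99) and 3.41% (2.58 to 4.40). The ratio with OVA was 0.693 (0.503 to 0.943) in the vehicle pair and 0.811 (0.581 to 1.12) in the ribavirin pair. Thinned shares ran from 0.289% to 0.703%, and their ratios, 0.436 (0.131 to 1.16) and 1.2 (0.491 to 2.77), left a difference not detectable at this depth. Mki67 read 37.2, 29.5, 35.1 and 33.8 CPM and Top2a 26.4, 12.5, 19.8 and 18.3 CPM. In the vehicle pair 6 members were at least 2-fold lower (Top2a, Cdca8, Cenpf, Nusap1, Prc1 and Tyms), against 3.52% of 12490 genes, and in the ribavirin pair 0, against 2.8%. After removal of cells marked by a doublet procedure the count in the vehicle pair was 0. Cdt1 was the 1 member at least 2-fold higher in each pair, against 8.37% and 6.51% of genes, at 10.0, 31.1, 9.66 and 30.6 CPM. The members' median differences were -0.47 and 0.12, against 0.19 and 0.21 for all genes. The summed T cell markers in macrophage-like cells, 41.1, 7.78, 27.9 and 14.6 CPM, were also lower with OVA, and their part in the member levels was not tested.

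Cdt1 and Gins2 were then followed through all 11 classes, having been chosen after their values in T cell-like cells were seen. Cdt1 was higher with OVA in 9 of 11 classes of the vehicle pair and in 11 of 11 of the ribavirin pair, with median differences of 1.18 and 1.24 on the log2(CPM + 1) scale. Gins2 was lower in 11 of 11 and in 10 of 11, with medians of -0.84 and -0.78. Pcna was higher in 11 and 10 classes. Most genes compared were also higher with OVA, in T cell-like cells 8426 and 8522 of 12110 in the vehicle and the ribavirin pair. In plasma cell-like cells these were 7847 and 7826 of 11076, and in macrophage-like cells 7836 and 8175 of 12490. How many genes were higher or lower in as many classes was not counted, and the classes of a pair share its libraries. In neutrophil-like cells Cdt1 read 7.16, 10.6, 6.96 and 17.1 CPM and Gins2 7.11, 0.843, 4.33 and 1.59 CPM. These levels rest on 157, 401, 164 and 129 UMIs of Cdt1 and 156, 32, 102 and 12 UMIs of Gins2. The level that free RNA gives for either gene was not measured, so they are not read as expression in neutrophil-like cells.

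**Figure D5:**
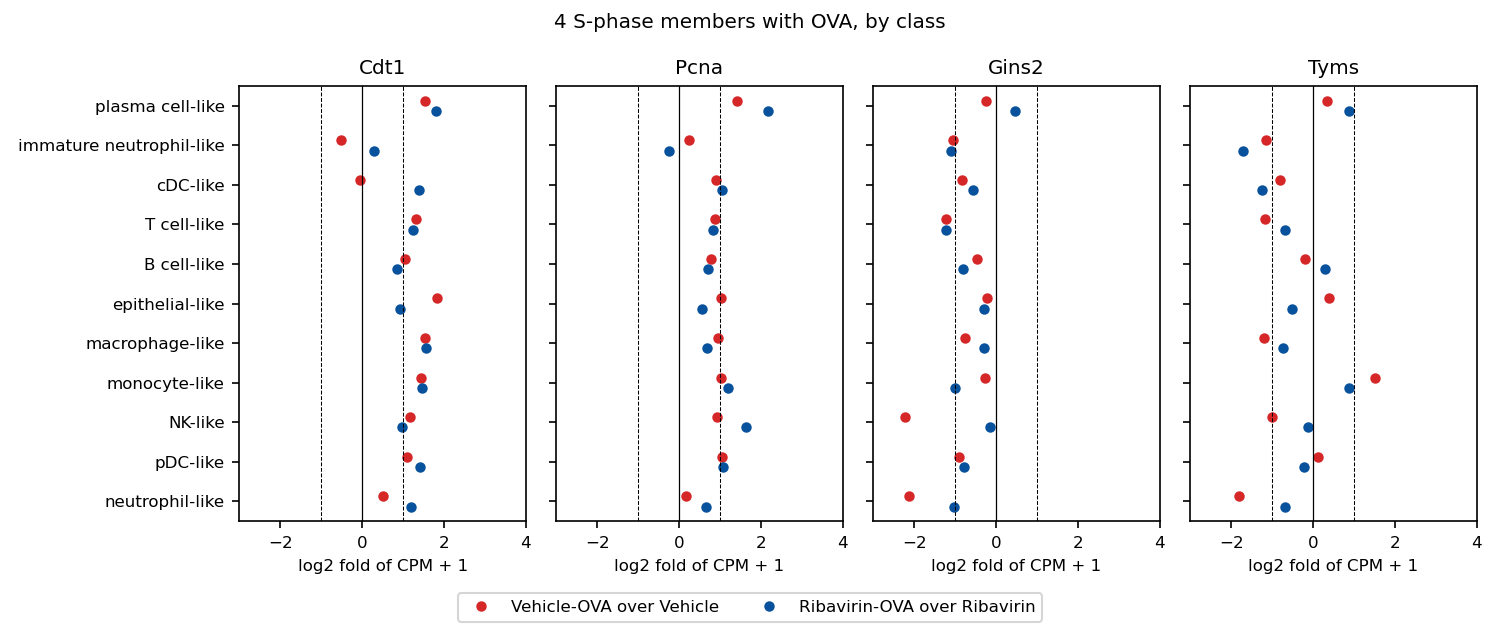
Difference of Cdt1, Pcna, Gins2 and Tyms between libraries with and without OVA, as log2 of the ratio of CPM + 1 (x axis), in 11 classes, for the vehicle pair and the ribavirin pair, with dashed lines at 2-fold. The 4 genes were chosen after their values were seen. Cdt1 and Pcna lie mostly above 0 and Gins2 mostly below 0.

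The balance between S-phase and mitotic members was compared inside the cycling cells, leaving Mki67 and Top2a out. In cycling T cell-like cells the ratio of S-phase to mitotic UMIs was 0.459 (0.450 to 0.468), 0.845 (0.806 to 0.887), 0.536 (0.524 to 0.549) and 0.664 (0.637 to 0.692). In cycling plasma cell-like cells it was 0.418 (0.404 to 0.432), 0.753 (0.721 to 0.785), 0.389 (0.371 to 0.409) and 0.760 (0.744 to 0.777). The ratio was higher with OVA in both classes and both pairs, and the counting intervals did not overlap. In cycling macrophage-like cells it was 0.503 (0.476 to 0.532), 0.661 (0.595 to 0.734), 0.517 (0.481 to 0.556) and 0.482 (0.439 to 0.530), higher with OVA in the vehicle pair. In cells not called cycling the ratio was 1.76, 3.16, 1.91 and 3.95 for T cell-like and 1.64, 2.66, 1.77 and 2.43 for plasma cell-like cells. It was thus higher with OVA in those cells too, and the difference was not particular to cycling cells. For macrophage-like cells not called cycling it was 2.75, 3.82, 2.84 and 2.82. Of the cycling T cell-like cells, 17.2%, 46.3%, 18.7% and 53.1% had under 3 of the 24 other mitotic members. Of the cycling plasma cell-like cells 31.25%, 36.5%, 41.4% and 23.6% did. The part of such cells in the ratio inside cycling cells was not tested.

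Other classes held fewer cycling cells. In immature neutrophil-like cells, which still carry granule protein genes of the marrow, the share was 18.4% (10.5 to 29.0), 14.8% (8.11 to 23.9), 26.5% (20 to 33.8) and 11.5% (7.08 to 17.4), and the ratio with OVA was 0.802 (0.347 to 1.84) in the vehicle pair and 0.435 (0.240 to 0.759) in the ribavirin pair. In B cell-like cells the shares were 2.61%, 3.98%, 5.86% and 12.0%, on 8, 10, 19 and 14 cycling cells, with ratios of 1.52 (0.542 to 4.44) and 2.04 (0.947 to 4.29). In cDC-like cells they were 9.36%, 7.62%, 9.72% and 10.4%, with ratios of 0.814 (0.328 to 1.77) and 1.07 (0.523 to 2.05). In monocyte-like cells they were 1.03%, 1.67%, 2.60% and 5.02%, with ratios of 1.61 (0.355 to 6.01) and 1.93 (0.869 to 4.17). In NK-like cells they were 1.74%, 5.41%, 1.64% and 3.20%, on 9, 4, 8 and 4 cells. In epithelial-like cells, which the CD45+ sort should remove, they were 1.62%, 8.33%, 5.21% and 5.28%, with ratios of 5.15 (1.38 to 23.4) and 1.01 (0.5 to 1.95). The intervals lay apart from 1 in immature neutrophil-like cells of the ribavirin pair and epithelial-like cells of the vehicle pair, the latter on 4 and 8 cycling cells. For the other ratios given here a difference was not detectable at these cell numbers. After thinning, the ratio in immature neutrophil-like cells of the ribavirin pair was 0.604 (0.274 to 1.26). That interval includes 1, so the difference was not detectable at equal depth. The thinned interval of epithelial-like cells of the vehicle pair, 1.45 to 614.35, lay above 1, on 1 and 5 cycling cells.

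Over all cells kept, the share was 4.43% (4.19 to 4.69), 2.54% (2.31 to 2.78), 4.15% (3.88 to 4.44) and 7.05% (6.53 to 7.61), a ratio of 0.572 (0.512 to 0.639) in the vehicle pair and 1.70 (1.53 to 1.89) in the ribavirin pair. The directions were opposite. With neutrophil-like cells left out, the log2 ratio was -0.10 in place of -0.81 in the vehicle pair and 0.66 in place of 0.76 in the ribavirin pair. Plasma cell-like cells supplied 21.0%, 23.4%, 13.2% and 41.6% of all cycling cells in the 4 libraries.

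The ribavirin libraries were compared with the vehicle libraries by the same measures. Without OVA, the ratio of cycling shares was 1.03 (0.889 to 1.19) in T cell-like, 1.03 (0.814 to 1.29) in plasma cell-like and 1.04 (0.818 to 1.32) in macrophage-like cells, intervals that include 1, and after thinning it was 0.758 (0.610 to 0.940) in T cell-like cells. The ratio of the mitotic sum was 0.835 (0.823 to 0.847) in T cell-like, 0.890 (0.867 to 0.913) in plasma cell-like and 0.853 (0.826 to 0.882) in macrophage-like cells. With OVA, the plasma cell-like share had a ratio of 1.42 (1.12 to 1.80) and the mitotic sum 1.68 (1.63 to 1.72) over the Vehicle-OVA library. All 42 members were higher there, as were 60.5% of all genes, with a median difference of 0.74 against 0.08 for all genes. In T cell-like cells the same ratios were 1.10 (0.833 to 1.44) and 1.06 (1.03 to 1.09). In macrophage-like cells 25 of 26 mitotic and 6 of 15 S-phase members were higher, against 53.1% of all genes, with medians of 0.51 and -0.06 against 0.02 and with Birc5 at a ratio of 1.61 (1.24 to 2.10).

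Furthermore, cycling cells were set against the other cells of their class and library. The 40 members other than Mki67 and Top2a were all higher in CPM in cycling T cell-like cells in each library, with median folds of 32.9, 24.1, 28.9 and 26.3, and in plasma cell-like cells, with 25.1, 24.2, 30.1 and 26.5. Their intervals lay above 1 in each of the 4 libraries, as did those of 9.11% of all genes in T cell-like and 13% in plasma cell-like cells. The smallest fold in T cell-like cells was 2.85, 2.12, 2.51 and 1.75, that of Cdt1 in the first 3 libraries and of Mcm6 in the Ribavirin-OVA library. In the Vehicle library Birc5 stood at 462 against 6.77 CPM in cycling and other T cell-like cells, and Pcna at 311 against 74.4 CPM. In macrophage-like cells 37 of the 40 members had intervals above 1 in each library, against 2.73% of all genes. Cdt1 was not among them, at 25.4 against 31.4 CPM in the Vehicle-OVA library and 9.48 against 9.67 CPM in the Ribavirin library. In the Ribavirin-OVA library it stood at 25.6 against 31.0 CPM. The intervals of its ratio in these libraries include 1.

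Of 40 other cell cycle regulators, 25 were higher and 5 were lower in cycling T cell-like cells in each of the 4 libraries by their intervals, against 9.11% and 10.0% of all genes, so that the count of lower ones was near the background. The lower ones were Btg1 and Btg2, antiproliferative genes, Cdkn1b, an inhibitor of cyclin-dependent kinases, and the D cyclins Ccnd2 and Ccnd3. Cdkn1b read 98.1 against 183 CPM in the Vehicle library, and Ccnd2 122 against 301 CPM. The higher ones included E2f8, at 61.7 against 0.695 CPM, and Mybl2 and Foxm1, activators of mitotic genes. Among plasma cell-like cells 24 were higher and 3 lower (Btg1, Btg2 and Cdkn1b), against 13% and 3.96% of genes. In macrophage-like cells 12 were higher and 1 lower (Btg2), against 2.73% and 1.14%.

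With OVA, 5 of 40 regulators were at least 2-fold higher and 2 lower in T cell-like cells of the vehicle pair, against 11.7% and 3.2% of all genes. In the ribavirin pair 3 were higher and 1 lower, against 8.92% and 3.43%, so that these counts were near the background. The highest differences belonged to Cdk6, Ccnd2 and Cdk2, kinases and a cyclin of the way into S phase, in both pairs. Cdk6 read 79.6, 204, 81.8 and 195 CPM, Ccnd2 269, 627, 294 and 708 CPM and Cdk2 9.86, 26.4, 10.7 and 22.5 CPM. The lowest were Ccnd1, Cdkn1c and Gmnn in the vehicle pair (-1.40, -1.17 and -0.72 on the log2(CPM + 1) scale) and Ccnd1, Ccne1 and Gmnn in the ribavirin pair (-1.11, -0.90 and -0.88). Gmnn encodes geminin, an inhibitor of Cdt1. Of the plasma cell-like comparisons, 11 of 39 and 20 of 39 were at least 2-fold higher in the vehicle and the ribavirin pair, against 12.3% and 17.1% of genes. At least 2-fold lower were 1 and 0, against 2.96% and 4.05%. The highest were Myc, Ccnd2 and Espl1 in the vehicle pair (1.78, 1.55 and 1.46) and E2f7, Espl1 and Ccnd2 in the ribavirin pair (2.38, 2.25 and 2.11), and the lowest was Ccnd1 in both (-1.43 and -0.61). In macrophage-like cells 1 of 37 was at least 2-fold higher in each pair, Cdk2 at 6.16, 15.7, 7.15 and 16.5 CPM, and 1 was lower, Ccnd1 at 73.2, 25.9, 67.3 and 28.6 CPM. The count of higher ones was under the 8.37% and 6.51% of all genes, and that of lower ones near their 3.52% and 2.8%.

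Outside the list, the 10 genes most like the members were taken by the lowest of the 4 libraries' log2 differences between cycling and other T cell-like cells. They were the histone genes Hist1h2ae, Hist1h1b, Hist1h2ap, Hist1h2ab and Hist1h3c, then 2810417H13Rik (a PCNA-binding factor), Esco2 (a cohesin acetyltransferase), Fam64a, Aspm (a spindle pole protein) and Kif4 (a mitotic motor). Their lowest differences ran from 7.18 for Hist1h2ae to 5.01 for Kif4.

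Lastly, cycling cells were described by subset genes, as CPM in cycling cells against other cells of the class. In T cell-like cells Cd4, the helper co-receptor, read 147 against 213, 211 against 277, 128 against 186 and 292 against 276 CPM. Gata3, the factor of type 2 helper cells, read 62.5 against 78.0, 216 against 221, 60.0 against 78.8 and 444 against 307 CPM, and its ratio of 1.45 (1.33 to 1.57) in the Ribavirin-OVA library was the one above 1. In plasma cell-like cells Xbp1, a factor of secretory cells, read 2264 against 3189, 3789 against 4957, 2099 against 2417 and 2758 against 3881 CPM and was lower in cycling cells of each library. In macrophage-like cells the ratios for Ccr2, a receptor of recruited monocytes, were 0.591, 0.504, 0.409 and 0.585. Those for Ly6c2, a marker of the monocyte-like class, were 0.857 (0.769 to 0.952), 0.293 (0.218 to 0.387), 1.65 (1.49 to 1.82) and 0.837 (0.667 to 1.04). Ly6c2 was thus higher in cycling cells of the Ribavirin library, unlike Ccr2. Arg1, an arginase of alternatively activated macrophages, read 2.36 against 10.5, 2903 against 3846, 74.4 against 61.6 and 1686 against 3093 CPM.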

How the data were processed

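Per the labels and the study's methods, nasal mucosa was digested, CD45+ cells were sorted with magnetic beads (the design text names flow sorting) and 4 libraries were made by 10x Genomics 3′ chemistry. The authors counted UMIs with Cell Ranger 5.0.0 against mm10 (submitters' processing notes), and the deposited files hold these counts per gene and cell, not normalized. The files hold no immunoglobulin genes under the symbols searched and lack 3 of the marker genes chosen (Trac, Trbc1 and Trbc2).

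Of 79132 cells, 72320 were kept by a floor of 200 genes and 500 UMIs and a ceiling of 10% for mitochondrial UMIs. Each was given the class whose markers had the highest mean log2(1 + UMI), where at least 2 markers and 3 marker UMIs were seen and the score was 1.5 times that of the next class. Cells without that lead were set aside as mixed, which served as the removal of doublets. A Scrublet-type procedure, an alternative, marked 3.94% to 11.2% of the cells of a library, those with the highest scores, for expected rates of 4.12% to 11.3%. The class markers were listed first, and the scoring rule was set after the counts were seen. CPM are sums over a class scaled to 1000000. A gene was compared from 50 UMIs in the class upwards, summed over the libraries, with a pseudocount of 1 CPM. Shares carry Clopper-Pearson intervals, UMI sums Poisson intervals and ratios conditional binomial intervals, all exact. Removal of shared barcodes, thinning with 1 UMI and leaving out neutrophil-like cells were alternatives chosen after seeing the data. Coordinates are GRCm38. Python 3.11.15, numpy 2.4.6, scipy 1.17.1, pandas 2.3.3 and scikit-learn 1.9.0 were used, and the fold step was tested on simulated data.

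The members and lists were chosen with earlier results of these data known. Every member is described by its role, and Mki67, Top2a and the member with the most UMIs in each role group are given per library, with Cdt1, Gins2 and Tyms added after their values were seen. For regulators the counts and the largest differences were named, and non-members were the 10 with the highest lowest-library difference. With 1 library a group, called means past 2-fold, and no alternative can leave out a replicate. Counts of members in the comparisons of ribavirin with vehicle were not recomputed under the alternatives.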

Additional observations from a re-analysis of the deposited data

Results flagged for a closer look

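Over all cells, the ratio of the cycling share with OVA to that without it was 0.572 in the vehicle pair and 1.70 in the ribavirin pair. It was singled out because the pairs went in opposite directions, and the difference between them was not tested, with 1 library a group. The share of neutrophil-like cells, 28.0% and 62.0% in the vehicle pair and 33.0% and 26.5% in the ribavirin pair, without and with OVA, moved with it, and with those cells left out the log2 ratios were -0.10 and 0.66.

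Cells with markers of more than 1 class, which entered no class, were cycling in 6.58% and 4.82% of the Vehicle and Ribavirin libraries and in 6.20% and 11.6% of their counterparts with OVA. They were singled out as data outside the comparisons with shares above that of neutrophil-like cells.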

How the results depend on the processing

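Each group was 1 library, so no replicate could be left out. No paired analysis was possible because each group held 1 library and the labels carry no replicate numbers. Of 178 alternative ratios of cycling shares, 148 stayed within the counting interval, 30 moved beyond it and 0 reversed a called value. Of 96 alternative counts of members, 82 stayed within 1.5 times. The values that moved follow as log2 ratios, vehicle pair before ribavirin pair, and the cause was not tested. With at least 5 UMIs of Mki67 and Top2a, all cells gave -1.03 and T cell-like cells -0.53 and -0.57. With at least 2, all cells of the ribavirin pair gave 0.57 and plasma cell-like cells 1.17. With 3 of the 24 other mitotic members, all cells of the vehicle pair gave -1.22, T cell-like cells -0.57 and -0.46, plasma cell-like cells of the vehicle pair 0.75, and of the ribavirin pair macrophage-like cells 0.55 and monocyte-like cells 2.42. This measure is not the share that asks for both criteria. In macrophage-like cells the latter was 1.42% (1.03 to 1.92) in the Ribavirin and 0.852% (0.467 to 1.43) in the Ribavirin-OVA library. After thinning, all cells gave -1.19 and 1.07, T cell-like cells -0.96 and -0.50, macrophage-like cells -1.20 and 0.26, monocyte-like cells of the vehicle pair 2.72, and of the ribavirin pair cDC-like cells 1.51 and plasma cell-like cells 2.28. cDC-like cells of the vehicle pair gave no thinned value, with 0 cycling cells in the Vehicle-OVA library. Thinned with at least 1 UMI, all cells of the ribavirin pair gave 0.51. By summed mitotic CPM, T cell-like cells gave -0.67 and -0.32, macrophage-like cells of the ribavirin pair 0.19 and plasma cell-like cells of the vehicle pair 0.69. Without cells marked by the doublet procedure, all cells gave -0.63 and 0.95 and plasma cell-like cells of the ribavirin pair 2.12. Without neutrophil-like cells, all cells of the vehicle pair gave -0.10. With a 3-fold lead and 5 marker UMIs, monocyte-like cells of the ribavirin pair gave -0.33.

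Among counts of members, a pseudocount of 5 CPM gave 4 and 1 lower in T cell-like cells (9 and 4 at 1 CPM) and 0 lower in macrophage-like cells of the vehicle pair. Relative to the median of all genes, T cell-like cells of the vehicle pair had 17 lower, both T cell-like pairs had 0 higher, and plasma cell-like cells of the vehicle pair had 6 higher. Under 5% mitochondrial UMIs, 2 were lower in T cell-like cells of the ribavirin pair and 3 in macrophage-like cells of the vehicle pair. Without cells marked by the doublet procedure, the vehicle pair had 14 lower in T cell-like, 0 lower and 3 higher in macrophage-like and 34 higher in plasma cell-like cells, and the ribavirin pair had 4 higher in macrophage-like cells. All intervals cover counting error only, and the spread between animals is unknown.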
